A study of Mus musculus with 8 samples.

Results

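The 10 genes described here belong to the integrated stress response: Atf4, Atf3, Atf5, Ddit3, Ddit4, Trib3, Chac1, Asns, Sesn2 and Ppp1r15a. They were picked by symbol from 53921 rows that name a gene, with their differences between the arms already known, in particular that Trib3 and Chac1 stood higher and Asns lower. Those differences are therefore given as descriptions, with no p-value. All 10 were found, and all 10 were among the 15324 genes that passed the filter on low counts. The cells were mouse induced cardiomyocytes with the label Neo, which are fibroblasts pushed towards a heart muscle identity by added transcription factors. Every library came from cells given the factor mix labelled MGT and collected on day 5. The 2 control libraries carried lentivirus with the hairpin labelled shNT, and the 2 others a hairpin against Grhl3, a Grainyhead-like transcription factor. The labels name no mouse strain or age, nor do they state that a group's libraries are from different cultures, so all spreads here may be technical.

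In the integrated stress response, kinases that sense misfolded protein, amino acid shortage, haem shortage or viral RNA phosphorylate the translation factor eIF2. General protein synthesis then slows, while the mRNA of ATF4 is translated more, so that the level of Atf4 mRNA alone does not tell how much ATF4 protein is present. ATF4 is a basic leucine zipper transcription factor that binds composite C/EBP-ATF sites, usually with a partner, and turns on genes of amino acid supply, tRNA charging, redox balance and cell death. Several of its targets act back on the pathway and damp it.

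Total counts per library lay between 16102839 and 19822541. Reads of Grhl3 numbered 31 and 14 in the shNT arm against 11 and 19 in the libraries labelled shGrhl3, so the groups overlapped (edgeR adjusted p = 0.362), and a fall of the targeted mRNA was not detected at this depth. The columns of these libraries are headed shGrhl1 and shGrhl2, while the sample titles of both name shGrhl3 and a replicate number. The digit was therefore taken for the replicate. Grhl1 and Grhl2 are also gene names, and by the headings alone a hairpin against each is another possible reading. Reads of Grhl1 numbered 13 and 3 in shNT against 26 and 24 (edgeR adjusted p = 0.0613), and those of Grhl2 0 and 5 against 1 and 0. Levels of Mef2c, Gata4 and Tbx5, whose initials match the label MGT, were somewhat lower in shGrhl3. The log2 fold change was -0.31 for Tbx5 and -0.23 for Gata4 (edgeR adjusted p = 0.00329 and 0.0321). For Mef2c it was -0.37, which did not pass (edgeR adjusted p = 0.196). Whether these reads came from the added factors or from the cells' own genes was not tested. Markers of other cell types also differed between the arms. The summed level of 16 leukocyte markers was 674 and 928 CPM (counts scaled to the TMM-adjusted library size) in shNT, against 154 and 123 CPM in shGrhl3. Most of each sum was Lyz2, with 454 and 645 CPM in shNT and 102 and 75.7 CPM in shGrhl3. Of the 16 markers, 11 of 12 tested fell and 1, Csf1r, rose. The 4 not tested had few counts in every library. C1qb had 5 and 2 counts in shNT against 0 and 0 in shGrhl3, and C1qc 6 and 6 against 0 and 0. C1qa had 1 and 11 against 0 and 6, and Aif1 4 and 6 against 8 and 4. The 7 cardiomyocyte markers summed to 4377 and 4478 CPM against 5618 and 5329 CPM. Most of each sum was Tnnt2, with group means of 3214 CPM in shNT and 3208 CPM in shGrhl3. Among the 7, 4 were called higher and 0 lower, namely Myh6 (12.2-fold), Tnni3 (6.00-fold), Actc1 (1.97-fold) and Myl7 (1.64-fold). The 7 fibroblast markers summed to between 9896 and 11719 CPM in every library, while 4 of them fell (Pdgfra, Tcf21, Dcn and Thy1), Col1a1 rose, and their median log2 fold change was -0.32. Sums of the 4 epicardial markers were 217 and 243 CPM against 330.0 and 324 CPM, those of 6 smooth muscle and pericyte markers 159 and 154 against 202 and 241 CPM, and those of 6 endothelial markers 49.95 and 46.8 against 39.3 and 35.9 CPM. Of the epicardial markers, Upk3b and Upk1b rose, while Wt1 and Msln did not pass. Of the smooth muscle and pericyte markers, Cspg4 and Notch3 rose, Cnn1 fell, and the median log2 fold change of the 6 was -0.23. Of the endothelial markers, Tek and Cldn5 fell and the others did not pass. In such bulk samples fewer cells of a type and less RNA per cell cannot be told apart, and the part of these shifts in the values below was not tested. The ribosomal RNA gene Rn18s took 0.573% and 2.00% of counts in shNT but 0.0959% and 0.156% in shGrhl3. With the rRNA-related rows left out, 7 of the 10 stress genes passed the threshold, as many as with them.

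Across all genes, 35.0% passed the threshold, an edgeR quasi-likelihood p of 0.05 after adjustment, 17.1% as higher and 17.9% as lower in shGrhl3 cells. By the same call 6 of the 10 stress genes were higher, 1 was lower and 3 were not past the threshold (Atf4, Atf3 and Ppp1r15a). This is only a description because the genes were chosen on this contrast. Their log2 fold changes ran from -1.44 for Asns to 2.44 for Trib3 around a median of 0.50, while the median over all genes tested was -0.01. The level in both shGrhl3 libraries lay outside the range of the shNT libraries for 9 of the 10, above it for 8 and below it for 1. The same held for 66.5% of all genes tested, 32.8% above and 33.7% below.

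**Figure D1:**
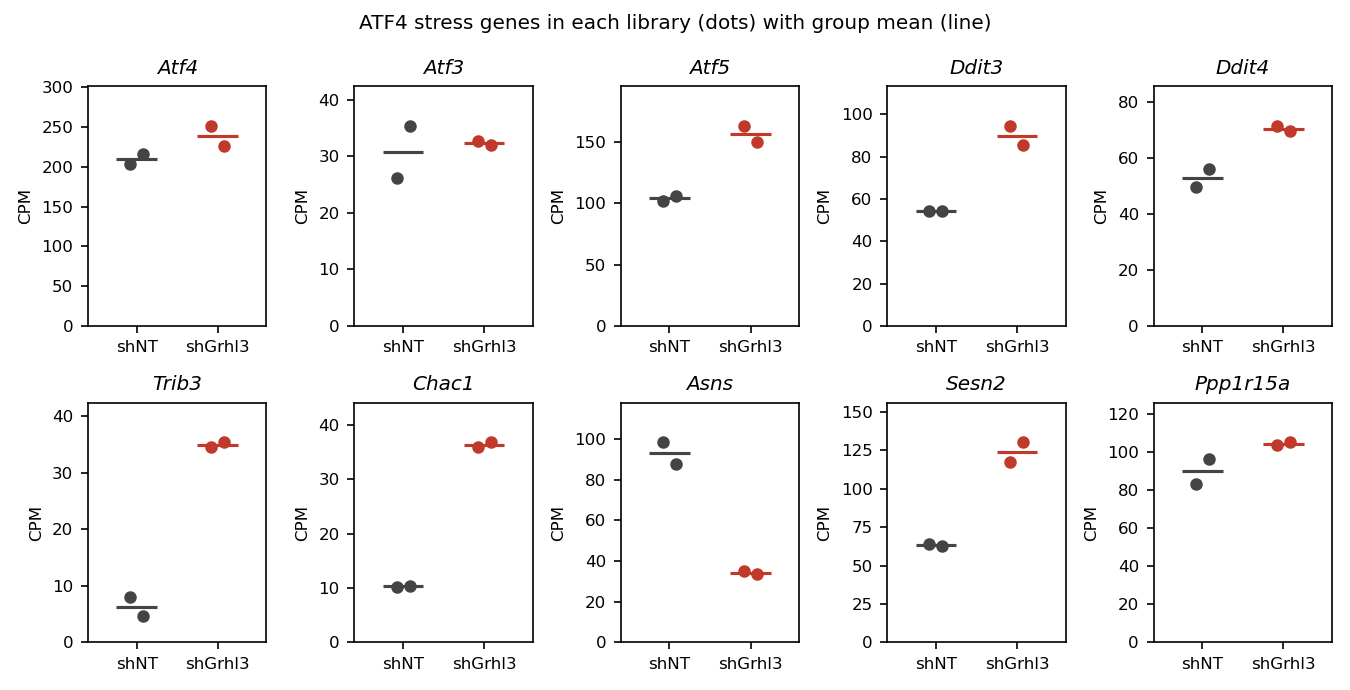
Level of each of the 10 genes in CPM (vertical axes, each from 0) in the 2 shNT and 2 shGrhl3 libraries, with dots for libraries and lines for group means. Trib3 and Chac1 stood between 34.6 and 36.8 CPM in both shGrhl3 libraries against at most 10.4 CPM in shNT, Asns stood lower in both, and only the Atf3 libraries overlapped.

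The transcription factors of the group differed little or moderately. Atf4, the central regulator, had 204 and 217 CPM in shNT and 251 and 226 CPM in shGrhl3. Both shGrhl3 libraries were above both shNT libraries, but the gap between the nearest libraries was narrow, and the log2 fold change was 0.18 (SE 0.08). Atf3, a stress-induced zipper factor that can repress transcription, had 26.2 and 35.4 CPM in shNT and 32.8 and 32.0 CPM in shGrhl3. Its shNT libraries lay on either side of the shGrhl3 libraries, and its log2 fold change of 0.08 (SE 0.13) turned to -0.13 without shNT replicate 1 and was 0.31 without shNT replicate 2. Atf5, a factor whose mRNA is also translated preferentially under stress, had 102 and 106 CPM in shNT and 163 and 150 CPM in shGrhl3, a log2 fold change of 0.59 (SE 0.09). Ddit3, which encodes CHOP, the factor that links lasting stress to cell death, had 54.1 and 54.2 CPM in shNT and 94.6 and 85.4 CPM in shGrhl3. The shGrhl3 libraries of Atf5 and Ddit3 thus stood clear of the shNT libraries, with a log2 fold change of 0.73 (SE 0.10) for Ddit3.

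Both genes that feed back on the pathway stood higher, by very different amounts, and Ppp1r15a was not past the threshold. Trib3, a pseudokinase that binds ATF4 and AKT and restrains both, had 153 and 74 counts in shNT and 693 and 660 counts in shGrhl3. In CPM these were 8.00 and 4.66 against 34.6 and 35.3. All shGrhl3 values were far above shNT, and the shNT libraries differed from each other by more, relative to their mean, than those of any other gene of the group (37.3% SD). The log2 fold change was 2.44 (SE 0.18), or 5.44-fold, and only 72 of the 15324 genes tested had a larger rise. It was 2.90 without shNT replicate 1 and stayed at 2.13 or above under every alternative. Ppp1r15a, or GADD34, which directs a phosphatase to eIF2 and so restarts translation, had 83.4 and 96.5 CPM in shNT and 104 and 105 CPM in shGrhl3. The groups did not overlap, and the log2 fold change was 0.22 (SE 0.09), with values from 0.11 to 0.33 over the 13 alternatives.

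Among the effectors, Chac1 showed the tightest replicates. This enzyme breaks down glutathione, the main thiol buffer of the cell. It had 10.2 and 10.4 CPM in shNT and 35.9 and 36.8 CPM in shGrhl3, with within-group SDs of 1.02% and 1.69% of the mean. The log2 fold change of 1.82 (SE 0.13), or 3.52-fold, was exceeded by 157 of all genes tested and ranged from 1.80 to 1.84 over the alternatives. Sesn2, a leucine sensor that holds back the growth kinase complex mTORC1, had 63.8 and 62.5 CPM in shNT and 117 and 130 CPM in shGrhl3. Ddit4, or REDD1, which restrains mTORC1 through the TSC complex, had 49.7 and 56.2 CPM in shNT and 71.6 and 69.7 CPM in shGrhl3. Neither gene's groups overlapped, and the log2 fold changes were 0.97 (SE 0.09) for Sesn2 and 0.42 (SE 0.10) for Ddit4. Without shNT replicate 1 the value of Ddit4 was 0.33.

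Asns moved the other way. It encodes asparagine synthetase, which makes asparagine from aspartate with the amide group of glutamine and is one of the standard readouts of ATF4 activity. It had 1882 and 1394 counts in shNT and 706 and 626 counts in shGrhl3, or 98.3 and 87.8 CPM against 35.2 and 33.5 CPM. Both shGrhl3 libraries were thus far below both shNT libraries. The log2 fold change was -1.44 (SE 0.10), a 2.71-fold lower level, and 383 of the genes tested had a larger drop. It lay between -1.52 and -1.35 over all alternatives, so no single library carried it.

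**Figure D2:**
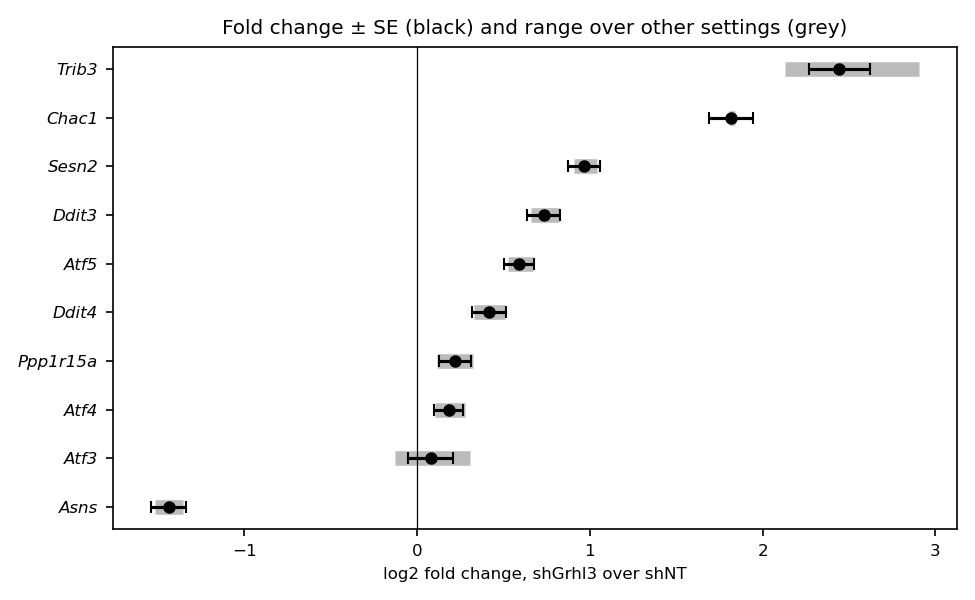
Log2 fold change of each gene in shGrhl3 over shNT (horizontal axis), with black dots and bars for the value and its SE from edgeR and grey bars for the range over 13 alternative settings. Asns lies at -1.44 and Trib3 and Chac1 at 2.44 and 1.82, and only the range of Atf3 crosses 0.

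The genes at both ends carry the same kind of sequence near their start. Promoter windows of 250 bases before to 50 bases after the annotated start, taken from RefSeq for GRCm38.p6, were found for all 10 genes, with 2 windows for Atf5. They were searched on both strands for the composite C/EBP-ATF motif TGATGNAA, the cyclic AMP response element TGACGTCA and its variant TGACGNAA. No 2 of the matches found overlapped, apart from the cyclic AMP response element, which reads the same on both strands. The composite motif occurred in 4 of the 10 genes, namely Atf3, Trib3, Chac1 and Asns, compared with 3.97% of all 32851 promoter windows. The variant occurred in Atf3 and Chac1 (1.59% of all windows) and the full response element in Ppp1r15a (1.79%). Such a match or its absence is a description of the letters only. The stretches around the matches are shown because they let the lower gene be read beside the higher ones. They run 5′ to 3′ on the strand of the gene, and capitals mark the matched motif, which reads as its reverse complement where it lies on the other strand.
Asns, chr6:7693210-7693272, minus strand: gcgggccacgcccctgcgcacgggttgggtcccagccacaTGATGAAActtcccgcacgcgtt
Chac1, chr2:119350992-119351096, plus strand: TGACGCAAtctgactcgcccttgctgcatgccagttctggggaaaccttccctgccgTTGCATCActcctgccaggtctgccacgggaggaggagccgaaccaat
Trib3, chr2:152344029-152344056, minus strand: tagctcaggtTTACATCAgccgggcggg
Atf3, chr1:191183334-191183483, minus strand: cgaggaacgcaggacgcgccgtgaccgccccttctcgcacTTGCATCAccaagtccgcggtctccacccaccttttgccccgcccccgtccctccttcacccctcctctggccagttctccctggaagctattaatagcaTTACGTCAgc
Ppp1r15a, chr7:45526269-45526320, minus strand: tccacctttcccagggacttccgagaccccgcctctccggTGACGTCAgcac

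In Asns the composite match began 23 bases before the start and lay on the gene's own strand. The match of Chac1 lay 193 to 186 bases before the start, and that of Atf3 110 to 103 bases before it, both on the opposite strand. In Trib3 the only match lay 15 to 22 bases after the start. A composite match was thus present in the gene with the lower level, in both genes of the group with the highest fold changes and in Atf3, whose groups overlapped. Sesn2, Atf5, Ddit3 and Ddit4 stood higher with no match to these letters in their windows.

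**Figure D3:**
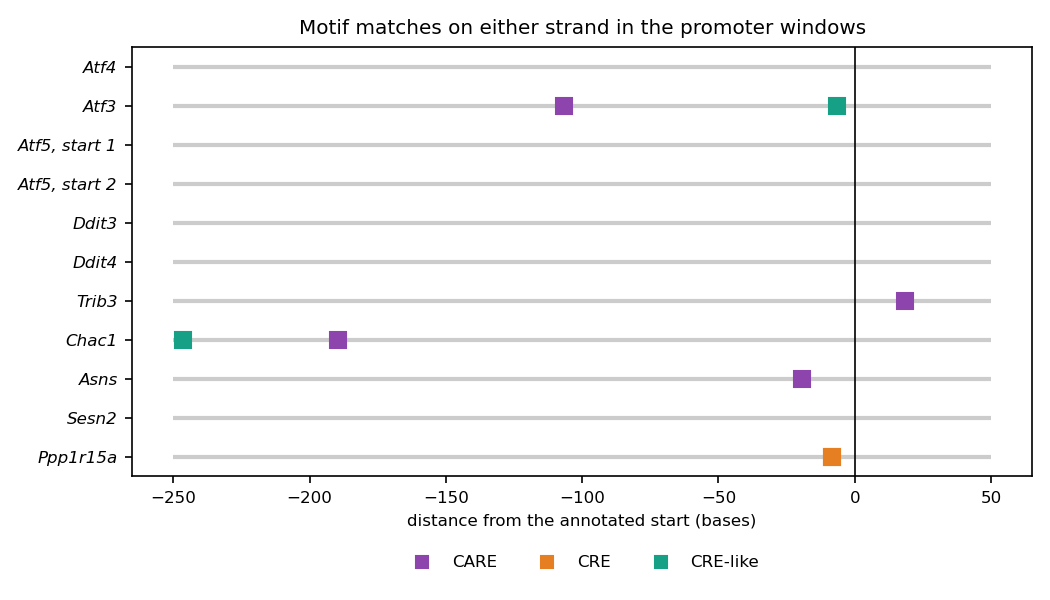
Positions of the motif matches relative to the annotated start (horizontal axis, in bases, 0 at the start) in the promoter window of each gene, with grey lines for the windows searched. Composite C/EBP-ATF matches (CARE) appear in Atf3, Trib3, Chac1 and Asns, and a cyclic AMP response element (CRE) in Ppp1r15a.

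Some of these genes overlap others in the RefSeq annotation, and whether the counting used strand is not stated in the labels or the table. Ddit3 (chromosome 10, 127290793 to 127296291) shares bases with Mars1 and Mbd6. Mars1 had a log2 fold change of 0.27 and Mbd6 one of -0.32, beside 0.73 for Ddit3. Atf5 (chromosome 7, 44812256 to 44816658) shares bases with Nup62, whose log2 fold change was -0.02, and Ppp1r15a with Tulp2, which had 26 counts or fewer in each library. Trib3, Chac1 and Asns had no overlapping gene that the count table holds under its RefSeq symbol. Ddit3 also has a second row in the table, with 0 counts in every library.

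The wider pathway was read through 12 lists with 160 genes, of which 156 were tested. Over all of them 60 rose and 25 fell, with a median log2 fold change of 0.18. Each list is read against 17.1% higher and 17.9% lower among all genes.

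Sensors and core factors of the response moved in both directions. Of 9 eIF2 kinases and their regulators, none rose and 2 fell. The fallers were Eif2ak1, the haem-regulated kinase (66.5 ± 3.66 to 53.9 ± 5.59 CPM, SD, n = 2), and Dele1, which relays mitochondrial stress to it (24.0 ± 1.70 to 18.3 ± 1.76 CPM). Their edgeR adjusted p-values were 0.0244 and 0.0254, and with DESeq2's Wald test 0 of the 9 passed. Without shNT replicate 2 or without shGrhl3 replicate 2 the list had 1 call, and without shGrhl3 replicate 1 it had 6. The Eif2ak1 call was lost without shNT replicate 2 or shGrhl3 replicate 2, and that of Dele1 without shNT replicate 2 or shGrhl3 replicate 1. The kinase PERK, encoded by Eif2ak3, stood at a log2 fold change of 0.25 and did not pass (edgeR adjusted p = 0.0710). It passed without shNT replicate 2, without shGrhl3 replicate 1 and with scaling by library size only, and is named after its value was seen.

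Of 13 subunits of eIF2, of its exchange factor eIF2B and of the eIF2 phosphatases, 5 rose and 3 fell. Eif2s1, the subunit that the kinases phosphorylate, rose from 123 ± 1.44 to 159 ± 7.47 CPM (SD, n = 2), and Ppp1ca, a catalytic subunit of the phosphatase, from 300 ± 5.12 to 399 ± 16.4 CPM. The exchange factor was split, with Eif2b1 higher (39.5 ± 3.38 to 56.9 ± 5.92 CPM) and Eif2b4 lower (30.6 ± 2.73 to 20.7 ± 1.74 CPM). Eif2b2 and Eif2b3, named because the count is small, rose by 0.31 and 0.56 on the log2 scale, the first not without shNT replicate 2 or shGrhl3 replicate 1, nor with DESeq2. Ppp1r15b, the constitutive counterpart of Ppp1r15a, fell from 108 ± 2.09 to 87.3 ± 0.205 CPM (log2 fold change -0.31, edgeR adjusted p = 0.00839), a call lost without either shNT replicate (0.100 and 0.0552). Nck1, an adaptor, fell by 0.27 on the log2 scale and lost its call when any single library was left out and with DESeq2, scaling by library size only, no filter or the rRNA-related rows removed. Without shNT replicate 2 the list had 5 calls instead of 8.

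Other ATF, CREB and C/EBP factors had 3 of 20 tested higher and 4 lower. Jdp2, a zipper repressor related to Atf3, rose by 0.94 on the log2 scale, from 27.3 ± 3.15 to 52.4 ± 1.47 CPM (SD, n = 2; edgeR adjusted p = 6.78e-07), and Atf6, the membrane-bound sensor of misfolded protein, from 115 ± 10.6 to 161 ± 7.69 CPM. Atf7 fell from 70.1 ± 1.26 to 36.6 ± 2.71 CPM, Crebzf from 125 ± 4.03 to 76.9 ± 0.352 CPM while Atf1 had 63.5 and 66.2 CPM in shNT and 43.4 and 37.7 CPM in shGrhl3, also a fall. The third rise, of Cebpa, lost its call when any single library was left out, with DESeq2 and with no filter. The remaining faller was Atf6b, named because the count is small (log2 fold change -0.48). Cebpb and Cebpg, both partners of ATF4 and named after their values were seen, had log2 fold changes of -0.26 and 0.08 and did not pass, although Cebpb did without shNT replicate 1 or shGrhl3 replicate 1.

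Genes of amino acid supply were mostly higher, unlike Asns. Of 13 tested synthesis and one-carbon targets of ATF4, 9 rose and 1 fell, with a median log2 fold change of 0.49. Got1, which interconverts aspartate and glutamate in the cytosol, rose by 1.22 on the log2 scale (SE 0.09, edgeR adjusted p = 4.14e-10), from 59.5 ± 0.111 to 139 ± 4.72 CPM (SD, n = 2). Mthfd2, a mitochondrial folate enzyme, rose from 34.3 ± 4.01 to 69.4 ± 8.14 CPM and its partner Mthfd1l from 20.6 ± 0.202 to 33.4 ± 0.723 CPM. The single faller was Aldh18a1, which starts proline synthesis (76.9 ± 7.52 to 55.8 ± 1.80 CPM). Of 9 transporters, 5 rose and 1 fell, with a median log2 fold change of 0.40. Slc7a5, the leucine carrier, rose from 78.5 ± 5.75 to 166 ± 10.9 CPM, its heavy chain Slc3a2 from 144 ± 5.81 to 194 ± 0.724 CPM and the glutamine carrier Slc1a5 from 11.6 ± 0.336 to 19.2 ± 1.12 CPM. The other risers were Slc1a4 and Slc7a3 (log2 fold changes 0.40 and 0.78), the latter a call lost without shNT replicate 1 or shGrhl3 replicate 2 and with DESeq2. Slc38a2, another glutamine carrier that ATF4 induces, fell from 660 ± 13.3 to 536 ± 24.3 CPM, which was lost without shNT replicate 2 (edgeR adjusted p = 0.0939).

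Enzymes that charge tRNAs were also mostly higher. Of 12 synthetases linked to ATF4 and the tRNA exporter Xpot, 9 rose and 0 fell, with a median log2 fold change of 0.40. Wars rose by 0.87 on the log2 scale, from 60.8 ± 4.20 to 111 ± 0.813 CPM (SD, n = 2; edgeR adjusted p = 1.20e-07), Sars from 224 ± 13.0 to 405 ± 26.6 CPM and Aars from 225 ± 4.35 to 357 ± 15.8 CPM. These charge tRNAs with tryptophan, serine and alanine. Nars, which uses the product of Asns and is named after its value was seen, rose from 288 ± 10.9 to 380 ± 13.8 CPM. The 8 other cytosolic synthetases, fewer of which are known as ATF4 targets, had 5 higher and 1 lower with a median of 0.34. Rars, Dars and Farsb rose by 0.42, 0.39 and 0.43 on the log2 scale, and Farsa, the other chain of the same phenylalanine enzyme as Farsb, fell by 0.32. Hars and Vars rose as well (0.30 and 0.37), except without shNT replicate 1, where neither passed. The Farsa call was lost without shNT replicate 2, shGrhl3 replicate 1 or shGrhl3 replicate 2, and with DESeq2.

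Further stress targets of ATF4 and CHOP had 8 of 17 higher and 0 lower, with a median log2 fold change of 0.28. Nupr1, a small chromatin-associated stress protein, rose by 1.40 on the log2 scale (SE 0.08, edgeR adjusted p = 1.31e-11), from 129 ± 3.22 to 340 ± 4.41 CPM (SD, n = 2). Eif4ebp1, an inhibitor of cap-dependent translation, rose from 34.0 ± 3.14 to 70.1 ± 2.85 CPM, and Tnfrsf10b, a death receptor induced by CHOP, from 113 ± 6.44 to 185 ± 8.48 CPM. The hormone gene Fgf21 had 1 and 3 counts in shNT and 24 and 21 in shGrhl3, and the peptide gene Adm2 had 2 and 0 against 23 and 20. Both passed the count filter only through the shGrhl3 libraries, so their calls carry no weight of their own. With a minimum count of 30 neither was tested and the list had 6 calls. They are named after their values were seen. At such counts their fitted fold changes depend on the prior count and are not given. Gdf15, a secreted stress marker also named after its value was seen, stood at 14.7 and 14.5 CPM in shNT and 13.2 and 15.5 CPM in shGrhl3.

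**Figure D4:**
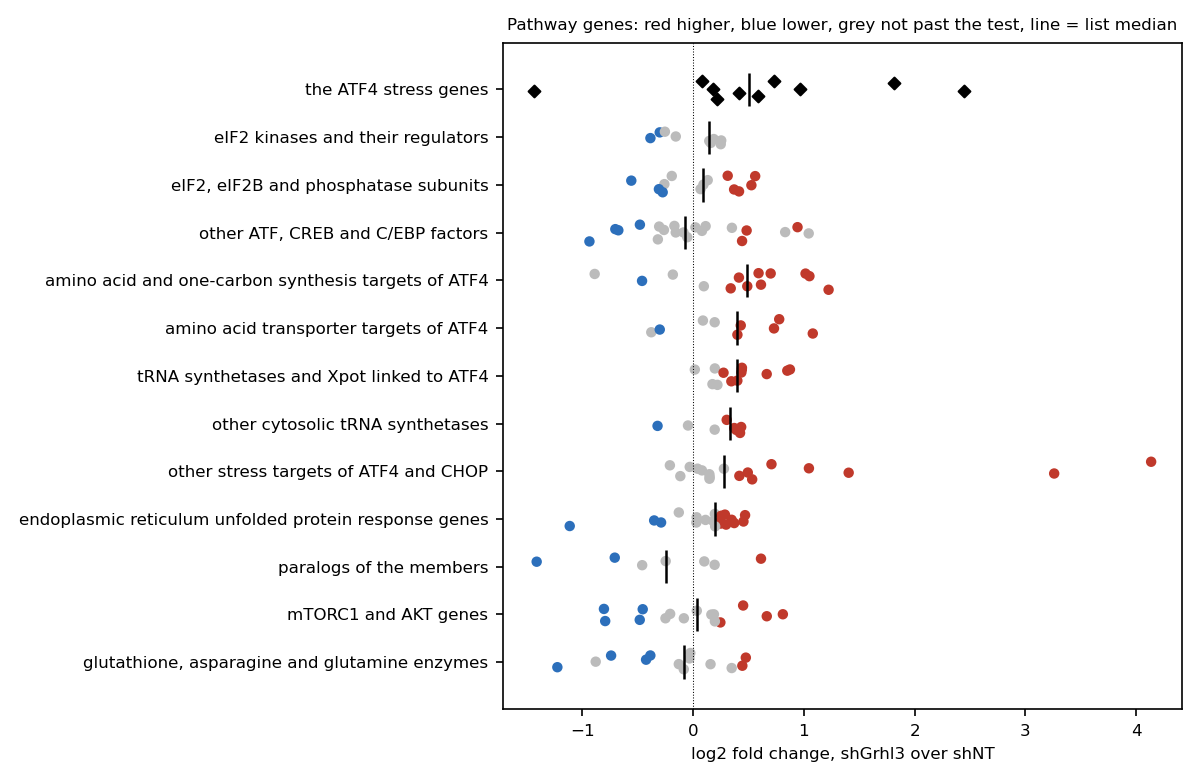
Log2 fold change in shGrhl3 over shNT (horizontal axis) of every tested gene of the 12 pathway lists, with red dots for genes that rose, blue for those that fell, grey for those not past the test, and black diamonds for the 10 stress genes, which were chosen on this contrast. Amino acid and tRNA synthetase genes lie mostly to the right with medians of 0.34 to 0.49 while Asns lies at -1.44, and both farthest dots on the right are Fgf21 and Adm2, which had 3 counts or fewer in each shNT library.

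The unfolded protein response of the endoplasmic reticulum, which shares the kinase PERK with the ATF4 pathway, had 9 of 19 genes higher and 3 lower, with a median log2 fold change of 0.20. Pdia3, a disulfide isomerase, rose from 827 ± 0.985 to 1144 ± 105 CPM (SD, n = 2), Herpud1 from 61.6 ± 0.0971 to 84.4 ± 2.46 CPM and Edem1, which marks misfolded glycoproteins for disposal, from 145 ± 4.94 to 187 ± 8.82 CPM. Pdia4, another isomerase, fell from 148 ± 6.88 to 68.4 ± 6.22 CPM (log2 fold change -1.11, edgeR adjusted p = 3.17e-09). The chaperone Calr fell by 0.35 and the sensor Ern1 by 0.29 on the log2 scale. Without shNT replicate 1 or without shNT replicate 2 this list had 6 calls instead of 12, the Calr call was lost without shNT replicate 2, and that of Ern1 without shNT replicate 1, shNT replicate 2 or shGrhl3 replicate 1, as well as with DESeq2, scaling by library size only and no filter.

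Of 7 paralogs of the stress genes, 1 rose and 2 fell, against 17.1% higher and 17.9% lower over all genes tested. A list of 7 is too small to call these shares alike or different. Sesn3 fell by 1.41 on the log2 scale (SE 0.11, edgeR adjusted p = 1.59e-09), from 72.3 ± 2.16 to 27.2 ± 4.32 CPM (SD, n = 2), against a log2 fold change of 0.97 for Sesn2. Trib2 fell from 117 ± 1.07 to 71.5 ± 1.83 CPM (log2 fold change -0.71), against 2.44 for Trib3. Chac2, the constitutive relative of Chac1, and Ddit4l, a relative of Ddit4, had log2 fold changes of 0.10 and 0.19 and did not pass. Asnsd1, which shares the synthetase domain of Asns, rose from 8.89 ± 0.160 to 13.6 ± 3.45 CPM, a call lost without shGrhl3 replicate 1, at a log2 fold change of 0.33. The differences between paralogs were not tested as such.

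Genes downstream of the effectors were mixed. Of 15 genes of mTORC1 and AKT signalling, on which Sesn2, Ddit4 and Trib3 act, 4 rose and 4 fell. Akt2 rose from 140 ± 2.96 to 245 ± 4.37 CPM (SD, n = 2). Tsc2, through which Ddit4 works, fell from 83.9 ± 4.33 to 60.0 ± 0.502 CPM. In the GATOR2 complex that Sesn2 binds, Seh1l fell (69.1 ± 2.67 to 39.8 ± 0.751 CPM) and Sec13 rose (137 ± 6.62 to 187 ± 5.43 CPM), and Castor1, an arginine sensor that binds the same complex, rose by 0.67 on the log2 scale. Rheb was also higher (0.25) and Wdr59 lower (-0.46). Rheb lost its call without shNT replicate 1, shNT replicate 2 or shGrhl3 replicate 1, and Wdr59 without the latter 2 or with DESeq2. Around glutathione, asparagine and glutamine, 2 of 13 tested enzymes rose and 4 fell. Glul, which makes the glutamine that Asns uses, fell from 190 ± 3.87 to 141 ± 18.6 CPM, and Got2, a source of aspartate, rose from 144 ± 2.35 to 196 ± 1.41 CPM. Ggt7 and Ggt5, of the glutathione-cleaving transferase family, fell by 0.74 and 1.23 on the log2 scale, and Gss, the last step of glutathione synthesis, rose by 0.48. Gclc, which catalyses the first step, was the fourth faller (-0.39), lost without shNT replicate 2 or shGrhl3 replicate 1. The Gss call was lost without shNT replicate 1 (edgeR adjusted p = 0.0827).

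The genes whose pattern over the 4 libraries was closest to the 3 largest movers were named by Euclidean distance of mean-centred log2 CPM among 8110 well expressed genes. Closest to Trib3 were Epha4, Unc45b and Tdrp, at distances of 0.398 to 0.636. Closest to Chac1 were Pgam2, Tgm2 and Tmem151a, at 0.0709 to 0.109, and closest to Asns were Rmdn3, Serpinb9 and Serinc5, at 0.0490 to 0.0612. With 4 libraries in 2 groups this distance mostly ranks genes by the size of their group difference.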

How the data were processed

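The authors deposited raw counts per gene for 4 RNA-seq libraries in a single table, and the columns were matched to the sample titles. The digit of the columns named shGrhl1 and shGrhl2 was read as the replicate number, since the titles of both libraries name shGrhl3. By the headings alone, a hairpin against Grhl1 and another against Grhl2 could also be meant. The submitters' processing notes list cutadapt 1.9.1, HISAT2 2.0.1, Bowtie2 2.2.6 and mm10 without roles; the counting program and strand setting are not given in the labels or the table. CUT&Tag samples (4, for H3K27ac) were not used here. Rows without a gene name (1438, at most 0.00872% of a library's counts) were left out. Counts were tested with edgeR 4.0.16 in R 4.3.3 (filterByExpr, minimum count of 10, TMM, robust quasi-likelihood, two-sided, Benjamini-Hochberg over 15324 genes, threshold 0.05). The SE comes from the F statistic, and ± is the SD over 2 libraries. DESeq2 1.42.0 and limma 3.58.1 served as alternatives. On simulated counts for 15021 genes, 85.6% of 194 genes with planted changes of at least 2-fold were called, with 7 false calls. Smaller changes were not simulated. Few genes were changed, and each gene's scatter was set to that typical of its level. In the real data 35.0% of genes passed, so the number of false calls need not carry over. Replicates differed by more than sampling noise (chi-square per degree of freedom 14.1 in shNT and 8.66 in shGrhl3, Rn18s included). That gene took 0.573% and 2.00% of counts in the shNT libraries, so it weighs on the first value. The members and lists were chosen with earlier results of these data known. Named list genes are up to 3 per direction with the lowest p, others are said to be named after their values were seen. Some genes that this rule takes are not reported here by name. Gene positions and promoters are RefSeq's for GRCm38.p6, the assembly of mm10, where all 10 genes matched. Precision is limited by counting error at low counts and by 2 libraries a group.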

Additional observations from a re-analysis of the deposited data

How the results depend on the processing

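Over 13 alternatives the number of genes past the threshold lay between 3878 and 5433, against 5368, and that of the stress genes between 6 and 8, against 7. Of the 10 stress genes 9 kept their direction in all 13, and Atf3 reversed to -0.13 without shNT replicate 1. Its values with a library left out spanned -0.13 to 0.31. The small log2 fold changes of Chac2 (-0.062 to 0.27) and Gdf15 (-0.13 to 0.083) also changed sign with a library left out. Among the lists, the eIF2 kinases had 0 calls with DESeq2 and 1 to 6 with a library left out, the eIF2 and phosphatase subunits 5 to 8 with a library left out, and the unfolded protein response 6 to 14. The other lists stayed within 1.5 times their count. Ppp1r15a passed with scaling by library size only, and Atf4 without shGrhl3 replicate 2. Ddit4, called higher in the main fit, passed in 12 of the 13 alternatives. Fits with 3 libraries assume that the lone library of a group varies like the others. The labels do not pair libraries by number, and deviations of libraries with the same number correlated at -0.0605 across genes. With the replicate number as a block 4889 genes passed, 7 of the stress genes among them, and the lists had 2, 7, 6, 10, 6, 9, 6, 8, 10, 3, 7 and 6 calls in the order of the plot of pathway lists. The calls of Rheb, Cebpa, Nck1 and Ern1 were not made with it (edgeR adjusted p = 0.0597, 0.0624, 0.0756 and 0.0692). The cause of these shifts was not tested.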
